A study of Mus musculus with 7 samples.

Results

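The nuclear-encoded subunits of the mitochondrial respiratory chain and of ATP synthase were described in 7 RNA libraries of cultured fetal mouse kidneys. Members were taken by gene symbol alone: those starting with Ndufa, Ndufb, Ndufc, Ndufs or Ndufv and a digit, with Cox4 to Cox8 and a letter, with Uqcr or with Atp5, and the genes Sdha, Sdhb, Sdhc and Sdhd. This gave 85 of the 23235 gene symbols in the tables: 37 for complex I, 4 for complex II, 8 for complex III, 19 for complex IV and 17 for complex V, the ATP synthase. Each had 1 entry per table and an estimate of status OK in all 7 libraries. By function, 5 of the 85 were not counted as subunits of any complex: Cox4nb, Cox7a2l, Ndufa4l2, Atp5s and Atp5sl. Members were grouped by name, which places Ndufa4, now counted with complex IV, under complex I.

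No FPKM value enters that rule, but the set was chosen by name after its genotype and prefix differences in these same libraries were known, so differences over it are given as description. The kidneys of all 7 libraries carried activated beta-catenin on a C57BL/6 background; E2-2, a basic helix-loop-helix transcription factor, was deleted in 3 and wildtype in 4. Pregnant mice had received tamoxifen at 10.5 days of gestation, 2 mg for every 40 g they weighed, and rudiments dissected at 10.5 days were then kept in culture for 3 to 4 days. The Cre driver, the deleted exons, the age of each culture and the number of kidneys per library are not given in the labels. Nothing states that libraries of a genotype came from separate animals, so a p-value here reflects the variation among the libraries alone, and that may be technical. The deposited tables also carry a name prefix of unstated meaning, BI for deleted replicates 1 and 2 and wildtype replicates 1 and 2, and BM for deleted replicate 3 and wildtype replicates 3 and 4.

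Complexes I and II feed electrons from NADH and succinate to ubiquinone, complex III passes them to cytochrome c, and complex IV, cytochrome c oxidase, passes them to oxygen. Complexes I, III and IV pump protons, and complex V uses the gradient to make ATP. A few subunits are encoded in mitochondrial DNA and all others in the nucleus, where many of their promoters are known targets of NRF1 and of the ETS factor GABP. The mature proximal tubule is among the body's most mitochondria-rich epithelia, while the early rudiment relies more on glycolysis.

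Levels are FPKM, a fragment count divided by transcript length and library depth, so that genes can be compared with each other. The depth inferred from the width of the deposited intervals ran from 14.6 M to 26.6 M fragments per library, and each of the 3 BM libraries (from 23.1 M) was deeper than each of the 4 BI libraries (up to 21.4 M). All 16 kidney lineage markers on a list of progenitor, stroma, duct and podocyte genes had a mean of at least 1 FPKM, with a summed level of 135 to 432 FPKM in the deleted and 286 to 494 in the wildtype kidneys. Tcf4, which encodes E2-2, stood at 33.5, 41.7 and 41.99 FPKM in deleted replicates 1 to 3 and at 48.8, 58.1, 28.7 and 39.2 in wildtype replicates 1 to 4. These groups overlapped; which exons were removed is not given, so the level over the whole gene does not check the deletion. In bulk RNA, fewer cells of a type and less RNA per cell cannot be told apart.

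The respiratory chain was abundantly transcribed in every kidney. The 85 members together made up 2.15% to 3.29% of all FPKM of a library. On average over the 7 libraries, 44 members stood at 100 FPKM or more, 33 between 10 and 100, and 8 below 10. None of the 13 mitochondrially encoded subunits has an entry in the tables, so the nuclear share of each complex is all that was read.

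Complex V held the members of highest level. Atp5b, the catalytic beta subunit of the F1 head, averaged 635 ± 76.2 FPKM (SD, n = 7), and Atp5k, the small membrane subunit e, 625 ± 213. Atp5a1, the alpha subunit that alternates with beta in the head, averaged 391 ± 49.0. The spread of Atp5k was wider than that of Atp5b: its highest library was 2.82 times its lowest, against 1.44 times for Atp5b.

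Among the tested subunits named for complex I the mean level ran from Ndufa11, in the membrane arm, at 20.2 ± 4.12 FPKM (SD, n = 7) to Ndufa4 at 502 ± 160 FPKM. Ndufa4 is named for complex I and is now counted with complex IV. In the redox core of complex I, Ndufs1 averaged 55.1 ± 4.396 and Ndufv1 65.9 ± 8.83 FPKM. Ndufs1 carries iron-sulphur clusters, and Ndufv1 the flavin that takes electrons from NADH. Among the 80 members with a mean of at least 1 FPKM, Ndufs1 and Sdha were the steadiest, with a highest library 1.23 and 1.24 times the lowest.

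The 4 subunits of complex II were close to one level. Sdha, the flavoprotein that oxidises succinate, averaged 103 ± 7.96 FPKM (SD, n = 7), Sdhb, the iron-sulphur subunit, 121 ± 26.4, and the membrane anchors Sdhc and Sdhd 101.2 ± 14.2 and 115 ± 16.6. In complex III, the most abundant was Uqcrh, the hinge protein, at 375 ± 106 FPKM, and the Rieske iron-sulphur protein Uqcrfs1 had the lowest mean, 73.0 ± 12.2. In complex IV, Cox6b1, Cox4i1, Cox6c, Cox8a and Cox6a1 all averaged above 250 FPKM, with Cox6b1 at 440.2 ± 95.4.

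**Figure D1:**
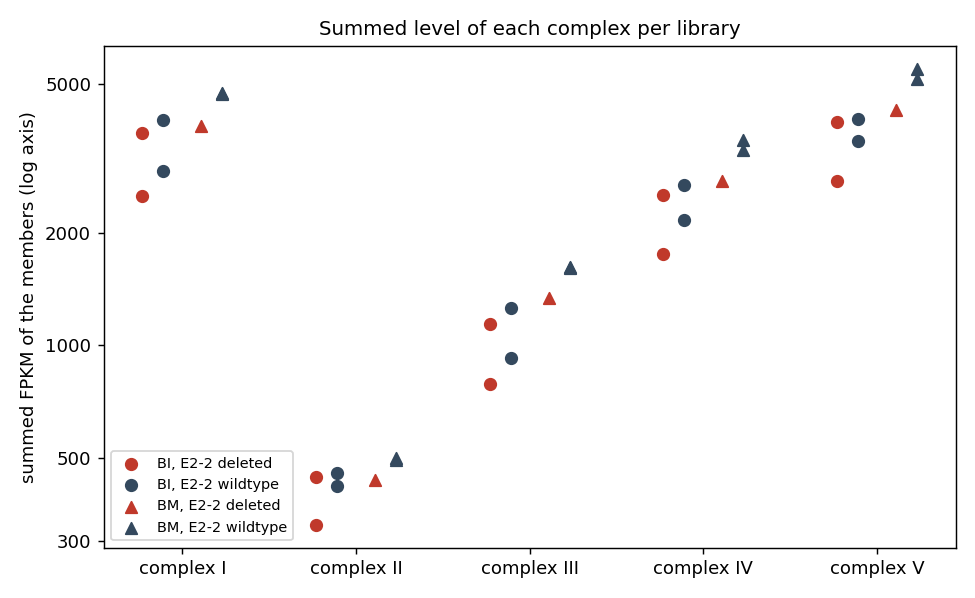
Summed FPKM of the members of each complex (log axis) in each library; each point is 1 library, colour gives the genotype and the symbol the file-name prefix. Complex II ran from 331 to 499 FPKM and complex V from 2743 to 5488, and the lowest point of every complex is the same library, E2-2 deleted replicate 2.

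The genotype comparison asks how these transcripts differ when E2-2 is deleted in kidneys with activated beta-catenin. None of the 80 members tested passed the threshold in limma's fit over 13467 genes (adjusted p below 0.05), and neither did any other gene, so percent called was 0%. At an unadjusted p below 0.05, the fit held 605 genes (4.49% of all) and 0 members. The smallest adjusted p of a member was 0.795. Yet 78 of the 80 differences, deleted minus wildtype, were below 0, against 60.7% of all genes tested. The median difference of the members was -0.29 on the log2(FPKM + 1) scale, against -0.05 over all genes. Other genes with short transcripts were further below 0 than genes as a whole, as given by length class below.

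All 5 complexes had a median below 0: -0.28 for complex I, -0.23 for complex II, -0.29 for complex III, -0.30 for complex IV and -0.33 for complex V. The 12 members of the catalytic or redox core, among them Ndufv1, Sdha, Uqcrfs1 and Atp5b, were all below 0, with a median of -0.23. In complex V, the 5 subunits of F1 had a median of -0.28: Atp5a1 and Atp5b of the head, and Atp5c1, Atp5d and Atp5e of the central stalk. The 3 genes of subunit c stood at -0.37 and the 7 peripheral stalk and small membrane subunits at -0.34. Within BI (2 deleted, 2 wildtype) the median of the members was -0.18 (-0.08 over all genes). Within BM (1 deleted, 2 wildtype) it was -0.25 (0.01 over all genes). The difference was below 0 within both prefixes for 71 of 80 members, against 36% of all genes. Members are not replicates, and few libraries stand behind each prefix. Within BI, the members' median deviation from their mean over all libraries was -0.003 and -0.54 in deleted replicates 1 and 2. In wildtype replicates 1 and 2 it was 0.10 and -0.31, so the BI difference leaned on deleted replicate 2.

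Single libraries weighed on these values. E2-2 deleted replicate 2 was the lowest of the 7 for 73 of the 80 members and for 44.4% of all genes tested. Without it, 65 of 80 members were below 0 (47% of all genes), and the median of the members was -0.09 against 0.01 for all genes. With a weight per library in the fit, 56 of 80 members were below 0 (49.5% of all genes), and the median was -0.07 against 0.001 for all genes. Wildtype replicate 2 was low as well, with 68 of 80 members below their mean over the 7 libraries. Without wildtype replicate 2, the median of the members was -0.39 against -0.05 for all genes. By genotype, 11 of the 16 kidney lineage markers had a difference below 0 (median -0.49) and 10 of 16 within both prefixes. In deleted replicate 2, Foxd1, a marker of kidney stroma, was at 2.30 FPKM, against 12.0 to 26.7 in the other 6 libraries. Myh11, of smooth muscle, was at 100.6 there, against 15.9 to 51.1. On the pericyte and smooth muscle list given below, Acta2 and Epas1 were also highest in this library, by smaller margins. Acta2 read 1158 FPKM there and 1061 in wildtype replicate 3. Epas1 read 32.1 there and 25.5 in wildtype replicate 1. The other genes of that list were not highest there, among them Rgs5, at 157 there and 212 in wildtype replicate 3. Some genes outside that list, picked after their values were seen, also set deleted replicate 2 apart. Aqp1 was at 86.4 FPKM there and at most 21.5 elsewhere, and Slc2a1 at 43.5 and at most 28.8. Pax8 was at 6.68 there and at least 14.7 elsewhere. The part of these genes in the result was not tested.

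In complex IV, Cox5a, a matrix-side subunit, stood at 167, 125 and 174 FPKM in deleted replicates 1 to 3 and at 191, 188, 204 and 186 in wildtype replicates 1 to 4. Every wildtype library was above every deleted one. The difference was -0.32 (SE 0.14), with an adjusted p of 0.795 in limma over all genes. Sdhc of complex II was the only other member whose groups did not overlap, among 2.05% of all genes with deleted below wildtype. Its deleted libraries read 99.18, 78.7 and 96.2 FPKM and its wildtype libraries 99.24, 107, 126 and 102. The gap between the groups of Sdhc was thus smaller than any spread within them, and its difference was -0.25 (SE 0.13). No member had all deleted libraries above all wildtype ones, against 2.84% of all genes.

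The member of smallest p in complex I was Ndufb8, a membrane-arm subunit often used as a marker of the assembled complex. It read 125, 85.2 and 146 FPKM in the deleted and 148, 129, 253 and 178 in the wildtype libraries. These groups overlapped through deleted replicate 3, which lay above wildtype replicate 2, and the difference was -0.56 (SE 0.27). Atp5d, the delta subunit of the F1 stalk, read 129, 90.7 and 114 FPKM in the deleted and 121, 122, 183 and 154 in the wildtype libraries. Its difference was -0.37 (SE 0.19), and its deleted replicate 1 lay above wildtype replicates 1 and 2. Uqcrfs1 of complex III differed by -0.27 (SE 0.16). For Cox5a, Ndufb8, Atp5d, Uqcrfs1 and Sdhc alike, deleted replicate 2 was the lowest of the 7 libraries.

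Several members of the catalytic core had small differences with intervals that still allow a sizeable change. Ndufs1 differed by -0.01 (95% interval -0.26 to 0.24) and Sdha by -0.08 (-0.33 to 0.18). For Atp5b, at -0.24, the interval was -0.67 to 0.20, and for Sdhb, at -0.30, it was -0.82 to 0.22.

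**Figure D2:**
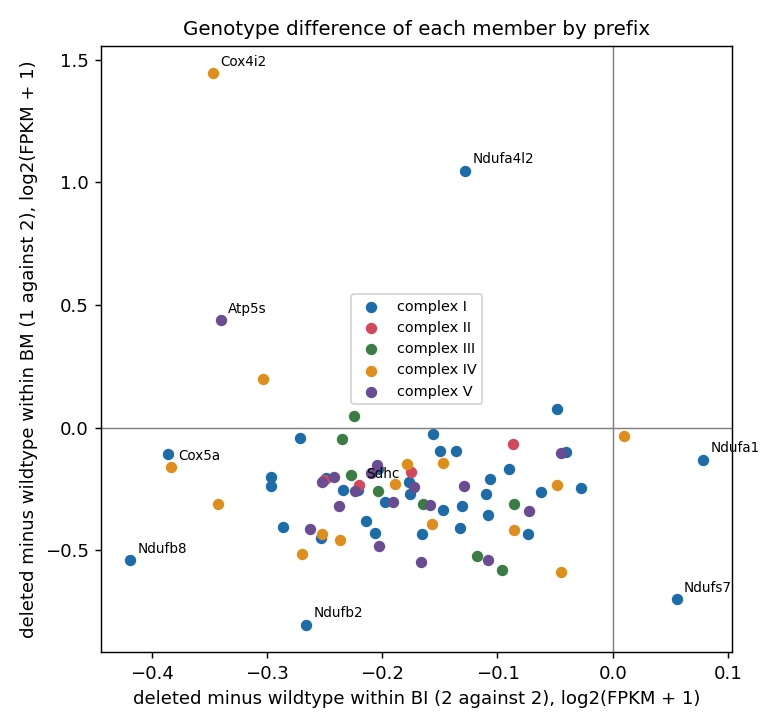
Difference E2-2 deleted minus wildtype of each tested member, log2(FPKM + 1), within BI (2 against 2 libraries, horizontal) and within BM (1 against 2 libraries, vertical); colour gives the complex. Most points lie below and left of 0, with 71 of 80 below 0 on both axes, while Cox4i2 and Ndufa4l2 are above 1 within BM only.

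By file-name prefix, most members were higher in the BM libraries, and 2 passed the threshold. Every BM library was also deeper than every BI library, so depth and prefix cannot be told apart. With genotype as a term, limma gave 43 genes of 13467 with an adjusted p below 0.05, all higher in BM (0.319%), and 2 of them were members, Atp5l and Atp5h of complex V. At an unadjusted p below 0.05 there were 27 members of 80, all higher in BM, against 5.18% of all genes in either direction and 4.52% higher in BM. The difference BM minus BI was above 0 for 76 of 80 members (59.7% of all genes), with a median of 0.36 against 0.04. Under quantile normalization it was above 0 for 57 of 80 members (46.6% of all genes) with a median of 0.13. With a weight per library, 20 members were called, against 3.24% of all genes. By complex the median was 0.36, 0.16, 0.50, 0.43 and 0.35 for I to V.

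In 25 members every BM library was above every BI library, against 7.17% of all genes, and in 0 members every BM library was below (1.14%). Complex V gave 7 of these, Atp5f1, Atp5g2, Atp5h, Atp5j, Atp5k, Atp5l and Atp5o. Of those 7, 6 belong to the peripheral stalk and small membrane subunits. Complex III gave Uqcr11, Uqcrb, Uqcrh and Uqcrq, complex IV gave 6 and complex I gave 8. Complex II and the 12 core members gave none. BM holds 2 of its 3 libraries from wildtype and BI 2 of 4. No marker of macrophages or red cells was called by prefix. All 12 macrophage markers had a difference above 0, with overlapping summed levels of 233 to 468 FPKM in BI and 216 to 683 in BM. Of 6 erythroid markers tested, 5 were above 0, with a median of 3.37 within the deleted and -0.89 within the wildtype libraries and overlapping summed levels of 10.2 to 258 FPKM in BI and 66.0 to 559.8 in BM. Their part in the result was not tested.

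Atp5l, subunit g of the membrane part of ATP synthase, read 80.1, 55.3, 84.0 and 58.4 FPKM in the BI libraries (deleted 1 and 2, wildtype 1 and 2) and 171, 219.6 and 215 in the BM libraries (deleted 3, wildtype 3 and 4). No BM library came near the BI range, and within BM the deleted library was the lowest. The difference was 1.51 (SE 0.19, limma adjusted p 0.037), a ratio of means of 2.90. Atp5h, subunit d of the peripheral stalk, read 46.8, 31.2, 40.4 and 46.3 FPKM in BI and 90.5, 121 and 94.5 in BM. The difference of Atp5h was 1.26 (SE 0.17, adjusted p 0.0438). Both calls were lost when any 1 of deleted replicate 3 and wildtype replicates 1 to 4 was left out, with adjusted p of 0.115 to 0.248 for Atp5l and 0.161 to 0.320 for Atp5h.

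Members of other complexes had differences as large without passing the threshold over all genes. Cox7c, a small membrane subunit of complex IV, read 54.0, 30.7, 57.3 and 30.8 FPKM in BI and 103, 165 and 148 in BM, a difference of 1.65 (SE 0.28, adjusted p 0.105). Ndufb4 of the complex I membrane arm read 15.4, 8.01, 16.5 and 10.2 FPKM in BI and 32.8, 47.7 and 41.6 in BM, a difference of 1.61 (SE 0.25, adjusted p 0.0692). Cox5b, which binds zinc on the matrix side of complex IV, differed by 1.34 (SE 0.20, adjusted p 0.0642), and Uqcr11 and Uqcrb of complex III by 1.30 (SE 0.22) and 1.04 (SE 0.21). In all of these the 3 BM libraries lay above the 4 BI libraries. Sdha barely differed: 106, 92.9, 101.4 and 109.6 FPKM in BI and 100.1, 95.1 and 115 in BM, a difference of -0.00 (SE 0.12). Sdhb and Sdhd of the same complex differed by 0.38 (SE 0.19) and 0.18 (SE 0.15). Further below 0 by prefix were Cox4i2 at -0.53 (SE 0.37), Ndufa4l2 at -0.30 (SE 0.30) and Atp5s at -0.11 (SE 0.32).

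**Figure D3:**
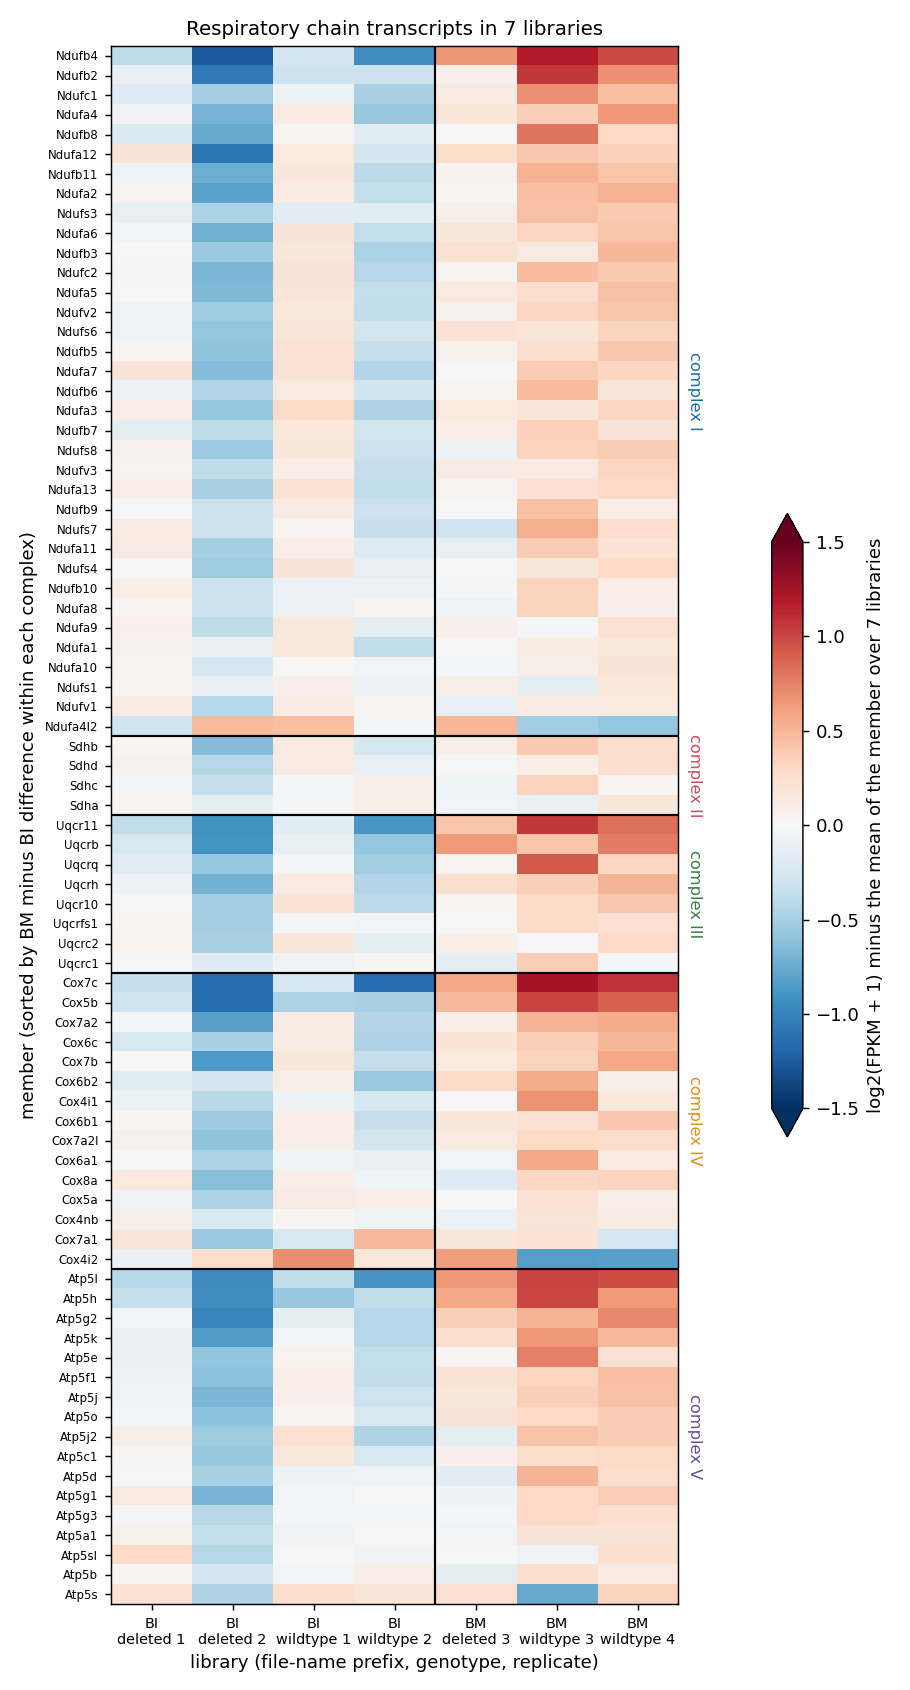
The tested members (rows, by complex; 1 of the 80 is not drawn) in each library (columns, BI left and BM right of the line); colour is log2(FPKM + 1) minus the mean of that member over the 7 libraries. Deleted replicate 2 is the lowest column, the 2 wildtype BM libraries are the highest, and Cox4i2 and Ndufa4l2 run against the rest.

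The promoters of both called members, of the member with the largest difference (Cox7c) and of a core member without one (Sdha) are printed so that the motifs can be read beside the values. They are the 250 bases before the RefSeq gene start, GRCm38.p6, all from the minus strand: Atp5l at chr9:44920743-44920992, Atp5h at chr11:115419920-115420169, Cox7c at chr13:86046796-86047045 and Sdha at chr13:74350241-74350490. Capitals mark letters searched on either strand: GCGCATG from the NRF1 site, CCGGAAG from the site of ETS factors such as GABP, and ATGGCGG from the YY1 site. The first and last of these can overlap by 3 bases, and overlapping matches of 1 motif were counted once.
Atp5l: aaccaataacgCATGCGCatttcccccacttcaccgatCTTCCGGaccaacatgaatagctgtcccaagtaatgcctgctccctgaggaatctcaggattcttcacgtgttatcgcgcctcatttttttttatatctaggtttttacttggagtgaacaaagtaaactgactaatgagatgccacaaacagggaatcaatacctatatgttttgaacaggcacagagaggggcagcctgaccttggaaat
Atp5h: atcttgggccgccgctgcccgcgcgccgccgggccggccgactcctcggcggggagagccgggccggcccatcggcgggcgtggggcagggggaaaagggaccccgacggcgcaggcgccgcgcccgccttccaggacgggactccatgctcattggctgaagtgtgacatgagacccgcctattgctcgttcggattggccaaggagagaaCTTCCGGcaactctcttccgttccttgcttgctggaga
Cox7c: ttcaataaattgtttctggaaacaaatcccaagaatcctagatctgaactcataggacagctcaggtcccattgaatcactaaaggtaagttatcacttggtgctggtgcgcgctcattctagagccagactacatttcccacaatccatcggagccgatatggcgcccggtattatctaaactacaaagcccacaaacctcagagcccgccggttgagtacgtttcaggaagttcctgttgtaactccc
Sdha: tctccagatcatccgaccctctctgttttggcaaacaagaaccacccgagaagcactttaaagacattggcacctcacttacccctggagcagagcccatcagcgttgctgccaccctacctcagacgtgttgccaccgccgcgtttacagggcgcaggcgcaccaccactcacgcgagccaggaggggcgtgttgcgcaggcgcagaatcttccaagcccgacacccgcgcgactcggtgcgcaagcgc
Atp5l holds 1 NRF1 and 1 ETS match and Atp5h 1 ETS match. Cox7c, with a prefix difference of 1.65, and Sdha, with -0.00, hold no match to these letters. A longer NRF1 form, searched first, did match in Sdha, so its lack of an NRF1 match holds for the shorter letters only.

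Windows were found for 69 of the 85 members, 75 windows in all. The NRF1 letters stood in 13.3% of the member windows, against 3.24% of all 32851 windows of this length. The ETS letters stood in 16% against 6.91%, and the YY1 letters in 8% against 2.21%. At least 1 of the 3 was found for 23 of the 69 members, among them Cox6a1, Sdhb, Sdhd, Uqcr11, Uqcrh, Cox5b and Atp5j. The E-box CANNTG, the core that E2-2 and other helix-loop-helix factors bind, stood in 62.7% of the member windows and 66.2% of all windows. The letters CTTTGAN, part of the site of the TCF/LEF factors that act with beta-catenin, stood in 9.33% against 13.8%. These are matches of letters in a short window and say nothing of binding.

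Short transcripts had the larger prefix differences, among the members and among all genes. Transcript length was the median over coding GENCODE vM21 transcripts that carry a RefSeq accession. The 9 members below 500 nt had a median difference of 0.54, the 14 from 500 to below 600 nt 0.47, the 23 from 1000 to below 2000 nt 0.30 and the 7 of 2000 nt or more 0.13. The other genes of these classes stood at 0.50, 0.41, 0.13 and 0.01. Across the 80 members, Spearman's rho between length and the prefix difference was -0.50, and across 12934 genes -0.38; genes are not independent replicates. For the genotype difference rho was 0.31 and 0.30. By genotype, members of the same classes stood at -0.34, -0.31, -0.24 and -0.14, and the other genes at -0.29, -0.23, -0.13 and -0.02. From 600 to below 800 nt it was -0.29 for members against -0.25, and from 800 to below 1000 nt -0.35 against -0.18. The part of length in the genotype difference was not tested.

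Members that share more sequence with other genes had larger prefix differences (Spearman's rho 0.53 across 80 members, 0.14 across 12840 other genes). The share was counted over stretches of 31 bases of the longest coding transcript that occur in a transcript of any other GENCODE gene, pseudogenes included. It was 85.4% for Atp5l and 60.8% for Atp5h, and for each of them 1 pseudogene alone, Gm10221 and Gm10250, held at least 50% of the stretches. Atp5g2, a gene of the proton-carrying subunit c, shared 87.7%, and 2 pseudogenes, Gm10175 among them, each held at least 50%. How many reads lay wholly within such stretches was not examined. Such reads cannot be assigned with certainty, so the levels of these 3 members are uncertain. The same holds for Atp5o (63.2%), Uqcrb (58.2%), Cox7c (55.7%) and Ndufs3 (55.0%), whose shared stretches lie in several genes, none of which alone holds 50%.

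The 7 members that shared from 50% to 90% had a median prefix difference of 1.04, from 0.48 to 1.65, the 28 that shared 10% to 50% had 0.42, and the 45 below 10% had 0.25. The 498 other genes that shared from 50% to 90% stood at 0.21, the 2147 from 10% to 50% at 0.10 and the 10041 below 10% at 0.02. No member shared 90% or more, and the 154 other genes that did stood at 0.07, lower than both classes from 10% to 90%. Among members shorter than 1000 nt the same classes gave 1.15 (6 members), 0.53 (21) and 0.34 (23), against 0.60 (146), 0.38 (181) and 0.24 (427) for the other genes of that length, with 0.30 (44) at 90% or more. Cox5a shared 47.2% and differed by 0.13, and Uqcr11 shared 19.5% and differed by 1.30. The part of length or of shared sequence in the prefix difference was not tested, and with the meaning of the prefix unstated, it cannot be told apart from anything else in which the BI and BM libraries differ.

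**Figure D4:**
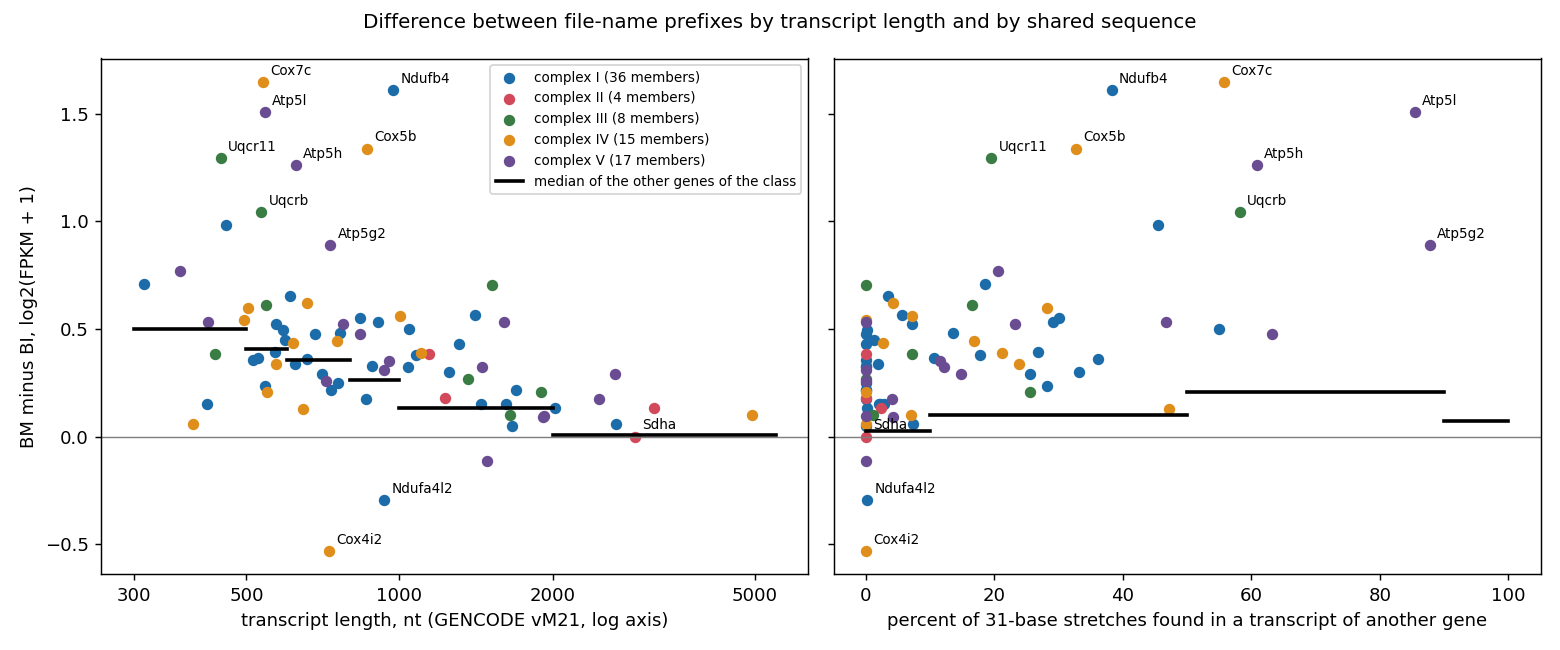
Difference BM minus BI of each tested member, log2(FPKM + 1), against transcript length (left, log axis) and against the share of its 31-base stretches found in another gene (right); colour gives the complex and black bars the median of the other genes of the class. Atp5l, Atp5h, Cox7c and Uqcrb are short and share more than 50%, and Sdha is long and shares almost nothing.

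Several subunits exist in forms that differ between tissues, and the widespread form held nearly all of the signal. Cox4i2, the form of subunit 4 known from lung and from hypoxic cells, made up 0.816% to 4.29% of the COX4 signal. The muscle and heart forms of other subunits were near the floor: Cox6a2 reached at most 1.27 FPKM, Cox8b 1.49 and Cox7a1 3.46, while Cox6a1, Cox8a and Cox7a2 averaged 284 ± 64.5, 341 ± 73.4 and 175 ± 55.3 FPKM (SD, n = 7). Cox8c, a testis form, was listed at 0 in all 7 libraries, and Cox7b2 was listed at 0 in 6 of them. Striated muscle markers summed to 46.7 to 59.6 FPKM over 23 genes.

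Cox6b2 was the exception among the tissue forms. It is known as the testis form of subunit 6b, and read 35.1, 32.6 and 48.7 FPKM in the deleted and 42.2, 26.7, 59.1 and 42.2 in the wildtype libraries. That was 6.90% to 10.6% of the COX6B signal, with overlapping genotypes. The 11 testis and germ cell markers summed to 1.10 to 4.10 FPKM, and 2 of them were listed at 0 in all libraries.

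Subunit c of ATP synthase is made from 3 genes that encode the same mature protein. Atp5g3 held 70.7% ± 4.37 (SD, n = 7) of their summed FPKM, Atp5g2 21.3% ± 4.41 and Atp5g1 8.01% ± 0.657. The share of Atp5g2 was 18.1% ± 2.42 in the 4 BI libraries and 25.5% ± 1.70 in the 3 BM libraries. By genotype it was 20.7% ± 5.26 in the deleted and 21.8% ± 4.44 in the wildtype libraries, a difference well within the spread.

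Cox4i2 and Ndufa4l2 were the 2 of 80 tested members with a genotype difference above 0 (39.3% of all genes), at 0.46 (SE 0.39) and 0.39 (SE 0.30), neither past the threshold (limma adjusted p 0.795 for both). Ndufa4l2 is a paralog of Ndufa4 induced by hypoxia. Cox4i2 read 9.41, 12.4 and 16.2 FPKM in deleted replicates 1 to 3 and 17.1, 11.4, 5.30 and 5.34 in wildtype replicates 1 to 4. Ndufa4l2 read 8.93, 16.0 and 16.3 FPKM in the deleted and 15.7, 11.1, 7.53 and 7.18 in the wildtype libraries. Both were lowest in wildtype replicates 3 and 4, the BM wildtype libraries in which most other members were highest, and in both the genotypes overlapped.

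The sign of both changed with the prefix: within BI the differences were -0.35 for Cox4i2 and -0.13 for Ndufa4l2, and within BM 1.44 and 1.05. Both genes are known from pericytes, the mural cells of small vessels. On a list of pericyte and smooth muscle genes put together after these values were seen, 9 of 10 were tested and none was called. By genotype, 5 differences were above and 4 below 0, with a median of 0.00, of -0.18 within BI and of 0.03 within BM, and summed levels of 611 to 1601 FPKM in the deleted and 638 to 1465 in the wildtype libraries. By prefix, all 9 differences were below 0 (median -0.33), while the summed levels overlapped, at 701 to 1601 FPKM in BI and 611 to 1465 in BM. Of 15 hypoxia targets, 9 had a difference above 0 and none was called, with a median of 0.13. The part of these genes in the levels of Cox4i2 and Ndufa4l2 was not tested.

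**Figure D5:**
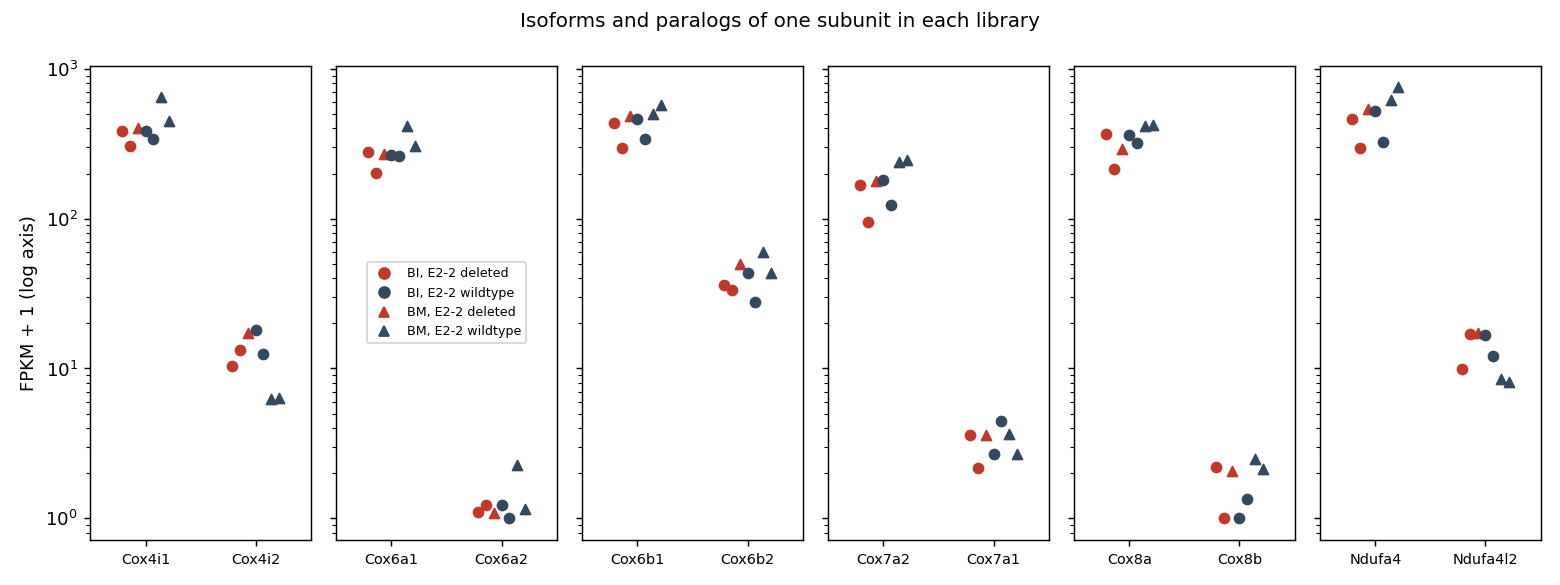
FPKM + 1 (log axis) of the widespread form (left in each panel) and the tissue form or paralog (right) in each library; each point is 1 library, colour gives the genotype and the symbol the prefix. Cox6b2 stands between 26.7 and 59.1 FPKM, and Cox4i2 and Ndufa4l2 are lowest in the 2 wildtype BM libraries.

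Ndufs5, an accessory subunit of complex I, had a mean below 1 FPKM and was not tested. It was listed at 1.95, 2.39 and 2.26 FPKM in the deleted libraries and at values below 0.0001 in all 4 wildtype libraries, where the upper bounds of the deposited intervals were 0.254 to 0.403. The same locus carries a second entry, BC002163, that shares 5452 bases with it. That entry read 30.6, 19.7 and 59.7 FPKM in the deleted and 34.5, 32.0, 75.5 and 57.0 in the wildtype libraries, with a low-data status, and a further entry of that symbol on chromosome 16 read 66.1 to 95.9. How the authors' counting split the reads among the 3 entries is not given in the sources used here, so the level of Ndufs5 is uncertain. Without a filter on low values, Ndufs5 was the 1 gene called in the genotype comparison, with a difference of 1.67 (limma adjusted p 0.00084), and with any 1 wildtype library left out it passed the filter with an adjusted p of 0.217 to 0.994. The other members below the filter were Cox6a2, Cox7b2, Cox8b and Cox8c.

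In all, 11 members overlap another entry of the tables. Among them is Atp5j, the coupling factor 6 of the ATP synthase stalk, which shares 451 bases with Gabpa, the gene of the GABP alpha subunit. Gabpa read 28.1 to 32.2 FPKM in all 7 libraries while Atp5j ran from 135 to 293. Ndufa4l2 shares 32 bases with Shmt2 and Ndufs1 shares 14704 with Gm11602, which stayed between 2.09 and 3.43 FPKM. Whether reads were counted by strand is not given in the sources used here.

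Genes that serve the chain were read from lists put together with earlier results known. None of the genes of these lists was called by genotype, and by prefix only Usmg5 was. For the mitochondrial import and carrier list, 18 of 18 differences were below 0 by genotype (median -0.20) and 18 of 18 above 0 by prefix (median 0.32). The citric acid cycle gave 15 of 18 below 0 by genotype (median -0.10). Assembly factors gave 10 of 11 below 0 for complex I (median -0.12) and 11 of 13 for complex IV (median -0.16). Glycolysis went the other way, with 12 of 17 above 0 and a median of 0.04. The 12 tested regulators of mitochondrial biogenesis gave 9 below 0, with a median of -0.09. Among them, Nrf1 read 16.6 to 19.6 FPKM in the deleted and 20.3 to 20.8 in the wildtype libraries, a difference of -0.22 (SE 0.09, limma adjusted p 0.795). Of all genes tested, 60.7% were below 0 by genotype, and 36% within both prefixes. Below 0 within both prefixes were 17 of 18 import and carrier genes, 9 of 18 of the citric acid cycle and 3 of 12 biogenesis regulators. Assembly factors gave 2 of 11 for complex I and 8 of 13 for complex IV.

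Subunits whose symbols fall outside the name patterns lay on the same side of 0 as most members. They are Cyc1, the cytochrome c1 of complex III, Ndufab1, the acyl carrier protein of complex I, Usmg5, a small ATP synthase subunit, and 2010107E04Rik, known as the ATP synthase subunit 6.8PL. All 4 were below 0 by genotype, with a median of -0.46, and above 0 by prefix. Usmg5 read 22.1, 12.0, 18.6 and 14.2 FPKM in the BI libraries and 78.5, 133 and 122 in the BM libraries. Its difference of 2.62 (SE 0.24, limma adjusted p 0.019) was larger than that of any member.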

How the data were processed

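Poly-A RNA of cultured fetal kidneys, extracted with Trizol, was made into 7 TruSeq RNA libraries, per the labels. The authors deposited 1 table of FPKM for each, with an interval and a status for all 23699 entries, per the file headers. The submitters' processing notes name CASAVA 1.8.2 and TopHat2 2.0.4 beside Cufflinks 2.0.2, without roles. The genome build is not given in the sources used here, nor is the annotation. Entries of a symbol were summed. Left out were small RNAs and genes whose status was failed or low-data in at least 1 table, and 13467 with a mean of at least 1 FPKM were tested as log2(FPKM + 1) with limma 3.58.1 in R 4.3.3 (mean-variance trend, 2-sided, Benjamini-Hochberg over all genes, threshold 0.05), by genotype and by prefix with genotype as a term. The fit was tested on simulated data. FPKM holds no counts; depth was inferred from the intervals, and low genes are less precise where depth is low. No count test was run.

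Members and lists were chosen with earlier results of these data known; the pericyte list, the groups within complex V and the count of shared 31-base stretches were added after values were seen. Genes named are the highest and lowest of each complex, isoforms, the core, the 2 smallest p per complex and comparison, members with groups that do not overlap, those below the filter or no subunit, and the smallest p of lists; others named were chosen after their values were seen. 1 member enters all counts and is not reported here by itself. Alternatives were other pseudocounts, filters and scalings, library weights, prefix as a term and each library left out. Motif and length searches used RefSeq GRCm38.p6 and GENCODE vM21, of which no coordinate was joined to the deposited ones. Motif letters were shortened after a longer NRF1 form had been searched, which matched in part other members, Ndufb4 and Sdha among them.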

Additional observations from a re-analysis of the deposited data

Results flagged for a closer look

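In 3 members a single wildtype library stood far from the other 3, by the gap to its neighbour relative to the range; chance gives such a gap in about 1 in 20 groups, and all members were looked at. Ndufa1, a small subunit of the complex I membrane arm, was lowest in wildtype replicate 2, at 70.9 FPKM against 98.9 to 103 in the others. Ndufa13, also known as GRIM-19, was lowest in the same library, at 41.3 FPKM against 61.9 to 66.2. Uqcrc1, a core protein of complex III, was highest in wildtype replicate 3, at 134 FPKM against 100.3 to 105.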

How the results depend on the processing

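With 3 and 4 libraries, intervals of single members are wide. The members' genotype median was below 0 under every alternative run, from -0.39 to -0.09 with a library left out and -0.07 with a weight per library, and their prefix median above 0, from 0.27 to 0.48 with a library left out and 0.13 under quantile normalization. By genotype, 1 gene was called with no filter on low values (1 member, Ndufs5, at 1.67) and 1 gene with a weight per library. By prefix, 43 genes and 2 members became 1 and 0 with no filter, 436 and 20 with a weight per library and 71 and 4 with prefix alone. With a library left out, 0 to 123 genes and 0 to 9 members were called: 0 without deleted replicate 3 or any 1 wildtype replicate, 9 members without deleted replicate 1. The cause was not tested. Signs turned for Cox4i2 and Ndufa4l2 by genotype within BI (-0.35 and -0.13), and under quantile normalization by prefix for the median of complex II (-0.066) and for Sdhd (-0.045). Of 384 values of single members under alternatives, 356 kept their direction and, where tested, their side of the threshold. Of 150 medians of complexes, 147 moved by less than the spread between libraries. For the genotype medians that spread was 0.31, about as large as the medians themselves, so this count does not show them to be stable. With a weight per library, the genotype median of complex V went from -0.33 to -0.02 and is among the 147. The levels of Ndufs5, Cox6a2, Cox7b2, Cox8b and Cox8c rest on few inferred fragments, at most 15 in a library (Cox6a2 in wildtype replicate 3). No paired analysis was possible because the replicate numbers only follow the order of deposit and the titles share none.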
